A study of Mus musculus with 2 samples.

Results

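Splice junctions shorter than 100 nt were examined in poly(A) RNA from mouse mammary gland. A splice junction is a pair of genome positions joined in reads that skip the bases between them, and its length is the number of bases skipped. The members were chosen by their score and their length: junctions outside the mitochondrial chromosome with a score under 0.1 in the deposited junction table and a length under 100 nt. This gave 9357 members, out of 139895 junctions of any length under the same score and 465423 in the whole table. The tissue came from C57BL/6J mice aged 8 weeks, an inbred strain, with RNA pooled from littermates of both sexes. Both libraries belong to 1 group and are labelled biological replicates 1 and 2. Both were strand-specific, read from either end of the fragment over 76 nt, and used poly(A) RNA longer than 200 nt from which rRNA had been removed. No contrast is stated, so nothing was tested between groups. The sources used here state neither the reproductive state nor how many animals were pooled.

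Expected counts summed to 56323489 fragments in genes for replicate 1 and to 42400470 for replicate 2. The junction table gives each junction a read count, which is the sum of 2 numbers coded R1 and R2, and 2 further codes, A and C, each 0 or 1. Which library R1 and R2 stand for, and what A, C and the score mean, is not stated anywhere in the labels, notes or tables. Over the 139895 junctions R1 summed to 19525391 reads and R2 to 15183669. Luminal epithelial markers were present at 1 TPM (a transcript level scaled for length and depth) or more in both replicates for 5 of 5 genes, and summed to 806 and 1504 TPM. The 5 adipocyte markers summed to 17490 and 32746 TPM.

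Introns are removed by the spliceosome, a large RNA-protein machine that recognises the 5′ splice site, the branch point and the 3′ splice site. Nearly all mammalian introns begin with GT and end with AG, a small share begin with GC, and a rare class removed by the minor spliceosome can begin with AT and end with AC. All of these signals must fit inside the intron, so mammalian introns have a practical lower limit of length. In genes whose introns are short, splice sites are thought to be paired across the intron rather than across the exon.

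The 4 members with the most reads whose sequence could be read, and whose flanks lie in coding exons, are shown as examples. They are not typical in reads, because the median member had 94. Each is printed with 10 exon bases on either side, and the capitals mark the first and last bases of the intron.
Actb intron: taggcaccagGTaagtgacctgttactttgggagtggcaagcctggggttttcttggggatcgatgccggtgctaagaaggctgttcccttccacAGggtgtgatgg
Aldoa intron: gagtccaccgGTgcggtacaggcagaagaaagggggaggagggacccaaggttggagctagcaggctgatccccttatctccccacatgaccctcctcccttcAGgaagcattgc
Fasn intron: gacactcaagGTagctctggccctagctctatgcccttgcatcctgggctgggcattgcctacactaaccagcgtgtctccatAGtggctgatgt
Crip1 intron: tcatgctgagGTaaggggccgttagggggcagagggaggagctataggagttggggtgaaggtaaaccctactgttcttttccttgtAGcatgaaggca

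These sequences come from GENCODE M21 transcripts that keep the intron inside an exon, on GRCm38. The Actb intron (beta-actin, chr5:142905477-142905563, minus strand) is 87 nt long and had 85501 reads, 30348 in R1 and 55153 in R2. The Aldoa intron (the glycolytic enzyme aldolase A, chr7:126797549-126797643, minus strand) is 95 nt long and had 50933 reads, 30835 in R1 and 20098 in R2. The Fasn intron (fatty acid synthase, chr11:120815216-120815290, minus strand) is 75 nt long and had 12299 reads, 6894 in R1 and 5405 in R2. The Crip1 intron (a LIM domain protein, chr12:113153376-113153454, plus strand) is 79 nt long and had 11964 reads, 7558 in R1 and 4406 in R2. All 4 begin with GT and end with AG.

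The members made up 6.69% of the junctions (95% Wilson interval 6.56 to 6.82, which covers counting error only). They carried 12.4% of the junction reads, 4300902 of 34709060. Their share was 11.98% of R1 reads and 12.9% of R2 reads. The median member had 94 reads, against 51 over all junctions, and 48.7% of members had at least 100 reads against 34.8% of all junctions. Reads were unevenly spread, and the 15 members with the most reads held 28.3% of the members' total.

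Length followed the codes. The median length was 85 nt, with an interquartile range of 79 to 91, and 93.6% of members were 70 to 99 nt long. Of the members, 7981 were coded A=1 and C=1, 22 were A=1 and C=0, 622 were A=0 and C=1, and 732 were A=0 and C=0. Members coded A=1 had a sharp lower edge: 10 of 8003 were shorter than 65 nt. Between 65 and 69 nt 107 of 168 members were coded A=1, between 70 and 74 nt 495 of 579, and between 85 and 89 nt 1823 of 2008. Of the 426 members under 65 nt, 416 were coded A=0, and 365 of these were also C=0. The commonest length among members coded A=1 was 82 nt, with 385 members, and their number per 5 nt fell from 1823 at 85 to 89 nt to 1187 at 95 to 99 nt.

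**Figure D1:**
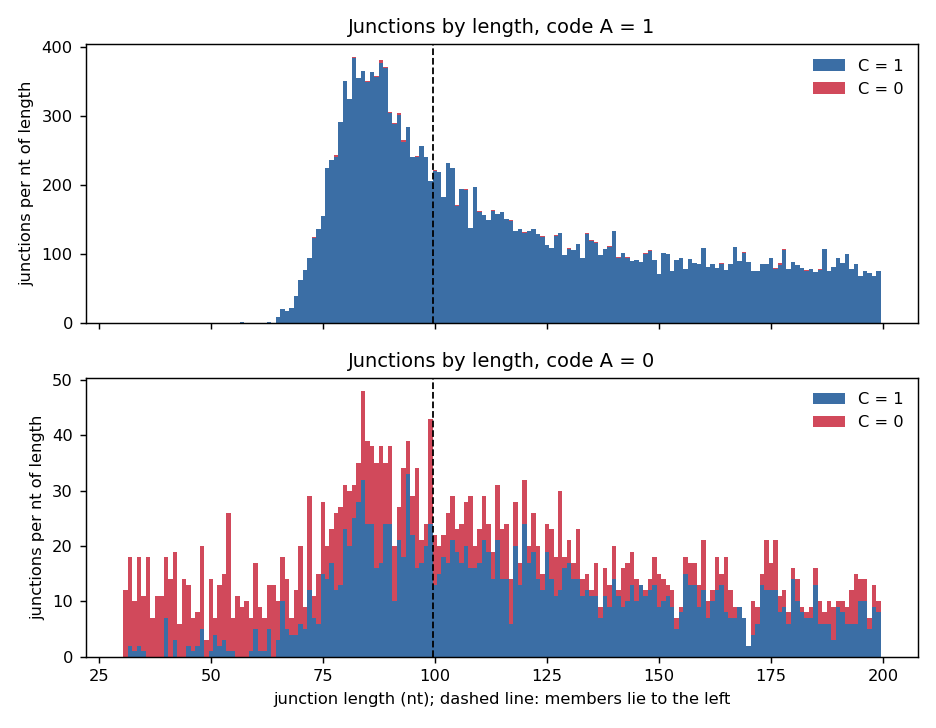
Number of junctions with a score under 0.1 at each length from 31 to 199 nt, in the upper panel for code A=1 and in the lower for code A=0, with the bars divided by code C. The A=1 junctions rise from about 65 nt to a peak of 385 at 82 nt, whereas A=0 junctions reach down to 31 nt, and there most are coded C=0.

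Reads followed the same division. Members coded A=1 and C=1 had a median of 130 reads (interquartile range 40 to 354) and held 98.97% of the members' reads. Members coded A=0 and C=1 had a median of 12 reads, and those coded A=0 and C=0 a median of 13. The share of lengths that are a multiple of 3 was 32.8% for A=1 and C=1, 36.8% for A=0 and C=1, and 42.2% for A=0 and C=0, against 33.3% over all junctions. The highest A=0, C=0 member had 1256 reads and the highest A=0, C=1 member 1051.

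The thresholds cut through continuous ranges. At 99 nt 249 members were counted, and at 100 nt 244 junctions fell outside. The 3 members of 99 nt with the most reads lay in Eef1a1 (a translation elongation factor, 22779 reads), Pnpla2 (adipose triglyceride lipase, 9163 reads) and Cotl1 (an actin-binding protein, 6589 reads). The 3 junctions of 100 nt with the most reads lay in Atp5a1 (27528 reads), Fasn (8080 reads) and Cdc34 (3761 reads). At the score threshold, Colgalt1 with 1024 reads, Por with 940 reads and a member without a gene match with 18 reads entered at a score of 0.091. The junctions just outside it had scores of 0.1, 0.111 and 0.111 and 1021, 1723 and 1602 reads. In all, 28575 junctions under 100 nt were left out by the score, of which 23179 had 1 or 2 reads and 80.7% were coded C=0.

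Members were given genes without moving coordinates between builds. A junction was matched where its own length, the length of the exon beside it and the length of the next intron occurred together once on that chromosome and strand in GENCODE M21. This matched 7899 of 9357 members (84.4%) to 1 annotated intron and none to more than 1, and 6311 of them through neighbours on both sides. With lengths set off by 1 nt, 7 or 3 members matched. The match followed code A: 7771 of the 7981 members coded A=1 and C=1 were matched, 112 of 622 coded A=0 and C=1, and 1 of 732 coded A=0 and C=0. A single gene could be named for 7718 members, in 3361 genes.

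The member with the most reads was the 90-nt intron of Cfd, the adipose serine protease adipsin (mm9 chr10:79354358-79354447). It had 144692 reads in R1 and 236981 in R2. The next was an 83-nt intron of Fasn (mm9 chr11:120669306-120669388), with 58686 and 47864 reads. Among the 15 highest members 8 lay in Fasn, 3 in the skeletal muscle actin Acta1, 2 in Aldoa, and 1 each in Cfd and Actb. All 15 were coded A=1 and C=1.

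Fasn, which makes palmitate and is highly expressed in fat and in the lactating gland, had 15 matched members among its 42 matched junctions. From 5′ to 3′ their lengths were 91, 74, 73, 77, 91, 75, 83, 77, 85, 82, 81, 85, 80, 85 and 83 nt. The lowest count was 6407 reads, in a 91-nt intron with 4150 in R1 and 2257 in R2. The highest was 106550 reads, in the 83-nt intron nearest the 3′ end, so that introns of 1 gene differed 16.6-fold. The 85-nt intron 3 places before the last had 6699 reads, while the members on either side of it had 58631 and 47238. The median was 34086 reads for the 15 members and 17636 for the 27 longer junctions, which ranged from 2879 to 70143 and overlapped the members.

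**Figure D2:**
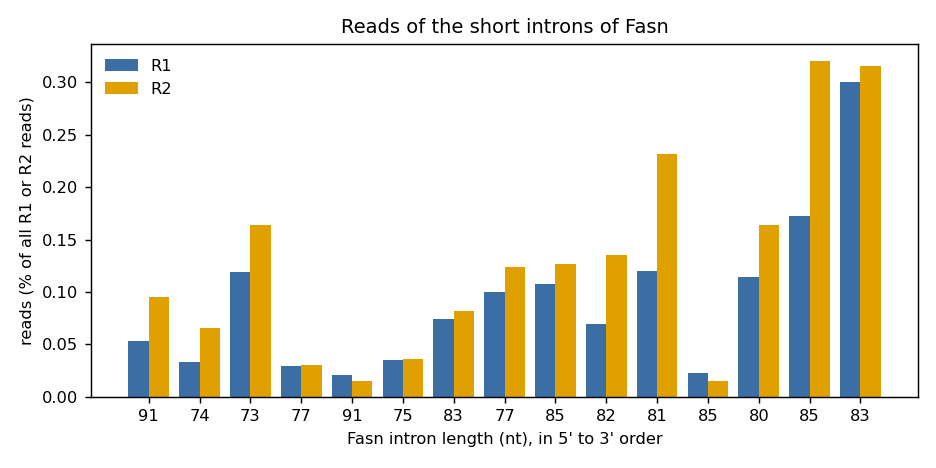
Reads of each of the 15 matched short introns of Fasn in 5′ to 3′ order, labelled by length, as a percent of all R1 reads (blue) or all R2 reads (orange). Counts vary along the gene by far more than between R1 and R2, from 0.0213% of R1 reads in the fifth intron shown to 0.301% in the last.

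Members were also set against the longer junctions of the same gene. In 3346 genes with both, the median of the log2 ratio of the gene's median member reads to its median longer junction reads was 0.23, with an interquartile range of -0.53 to 0.92. The members were above in 1927 genes (57.6%). The median level of host genes was 22.4 TPM in replicate 1 and 27.2 TPM in replicate 2 (24.8 ± 3.41, SD, n = 2), against 14.6 and 14.9 TPM for all 12023 quantified genes with a matched junction. Genes of low expression yield few junctions, so the comparison is among genes that passed the score. Most host genes held a single short intron, 1842 of 3361, while 1145 held 2 to 4 and 374 held 5 or more.

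The genes with the most matched members encode large proteins. Ttn, the giant sarcomere protein titin, had 40 of 167 matched junctions. Col7a1, the collagen of anchoring fibrils beneath epithelia, had 35 of 87. Lama5, a basement membrane laminin chain, had 31 of 77. Cpsf1, a subunit of the complex that cleaves pre-mRNA for polyadenylation, had 28 of 38, and Abca2, a lipid transporter, had 23 of 48. In Cpsf1 the members thus made up 73.7% of the matched junctions, with 12 to 602 reads each.

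Gene lists were described by their matched members, the members that correspond to an annotated intron, which made up 6.52% of all junctions matched to 1 gene. Unmatched members that could be placed inside an exon are counted apart. The 911 members that were neither matched nor placed were given no gene and are in no list. Some of them shared an end with a matched intron. For example, a 92-nt member with 44 reads ended where the Cfd intron ends. Of 17 adipocyte and lipid genes 8 held matched members, 43 in all, which was 13.3% of the list's matched junctions. Besides Fasn and Cfd these included Dgat1, which completes triglyceride synthesis, with 11 of 72 to 94 nt among 19 matched junctions. Srebf1, a lipogenic transcription factor, had 6 of 20, Mlxipl, the carbohydrate-responsive factor ChREBP, 4 of 18, and Pnpla2 3 of 11. Scd1, Acly, Dgat2, Plin1, Adipoq, Lipe, Agpat2 and Lpin1 had no matched member, nor did Acaca with 52 matched junctions. The lowest of these levels in replicate 1 was 90.6 TPM, for Lpin1 with 23 matched junctions, and the next was 322 TPM, for Acaca. A further 36 members were placed inside exons of 8 genes of the list, 30 of them coded C=0. Scd1 held 15 of these, all coded C=0, with 5 to 190 reads, and Fasn held 10.

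Of the 20 genes for splice site recognition and short-intron splicing 9 held matched members, 24 among 234 matched junctions (10.3%). Ptbp1, a repressor of exon inclusion that binds pyrimidine tracts, had 4 matched members of 68, 79, 80 and 89 nt, and a 47-nt junction with 26 reads was placed in an exon. Its 68-nt intron had 737 reads in R1 and 803 in R2. Prpf8, the core protein of the spliceosome, had 6 of 40, of which the 94-nt intron had 777 and 336 reads. U2af2, which binds the 3′ splice site, had 1 matched member of 74 nt. Hnrnph1, which binds G runs, had 3, the shortest of 56 nt. Rbm17 and Sap30bp, 2 factors with reported roles in splicing short introns, had none, matched or placed. Xbp1, whose mRNA loses a very short segment by an unconventional cut in the stress response, had no matched or placed member, and that segment is shorter than the shortest junction in the table, which is 31 nt.

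In the list of 10 milk and epithelial genes, the basal keratin Krt14 alone held matched members, 3 of 60 matched junctions (5%), and no member was placed in the list's exons. Of 79 ribosomal protein genes with a matched junction 32 held a matched member, 40 of 346 junctions (11.6%), led by an 88-nt intron of Rpl8 with 4109 and 5835 reads. Of 33 collagen genes 24 held matched members, 115 of 1150 (10%), led by an 88-nt intron of Col1a2 with 2280 and 4190 reads. Of 12 skeletal muscle genes 10 held matched members, 33 of 221 (14.9%), among them 12 in the calcium release channel Ryr1 and 7 in the fast myosin Myh4.

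The exon bases around the introns could be read for 119813 of the 119834 matched junctions, and for 7894 of the 7899 matched members. Over the 50 transcript bases on each side, the median GC content was 56% for members (interquartile range 51 to 60), 55% for junctions of 100 up to 200 nt, and 51% for those of 1000 up to 5000 nt. The last exon base was G at 83.3% of members, against 81.4% of all matched junctions, and the first base of the next exon was G at 52.9% against 49.2%. Of 7814 members in coding transcripts 98.3% lay between coding exons, against 93.8% of all, and 1.13% in the 5′ UTR, against 5.39%. In transcripts of 3 or more introns, which held 7838 members, they were the first intron in 3.24% of cases. This compares with 9.29% of all matched junctions and 4.83% of those of 100 up to 200 nt. Of members in coding regions 47.3% fell between codons (phase 0), 30.5% after the first base and 22.3% after the second, against 45.6%, 32.2% and 22.2% over all matched junctions.

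Contigs, the stretches of the genome that the authors report as covered by reads on 1 strand, were then set against the junctions. A spliced intron leaves a gap in such a stretch, and unspliced RNA fills it. Of the members 72.8% lay wholly inside 1 contig of their strand (95% Wilson interval 71.9 to 73.7), against 22.1% of all junctions. Among those coded A=1 the share fell with length, from 92.3% under 70 nt to 83.6% at 70 to 79 nt, 69.7% at 80 to 89 nt and 60.3% at 90 to 99 nt. It was 57.7% at 100 to 149 nt, 41.1% at 200 to 499 nt and 5.06% at 1000 to 4999 nt. Members coded A=0 lay inside in 90.5% of cases. Depth moved with the result: among A=1 members the share was 50.8% under 100 reads and 94.1% at 1000 reads or more. How the contigs were joined across gaps is not stated. The smallest gap between neighbouring contigs of 1 strand was 11 nt, and 236946 of 700340 gaps were under 100 nt, so gaps of these lengths were reported. Whether coverage or joining sets the share was not tested.

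**Figure D3:**
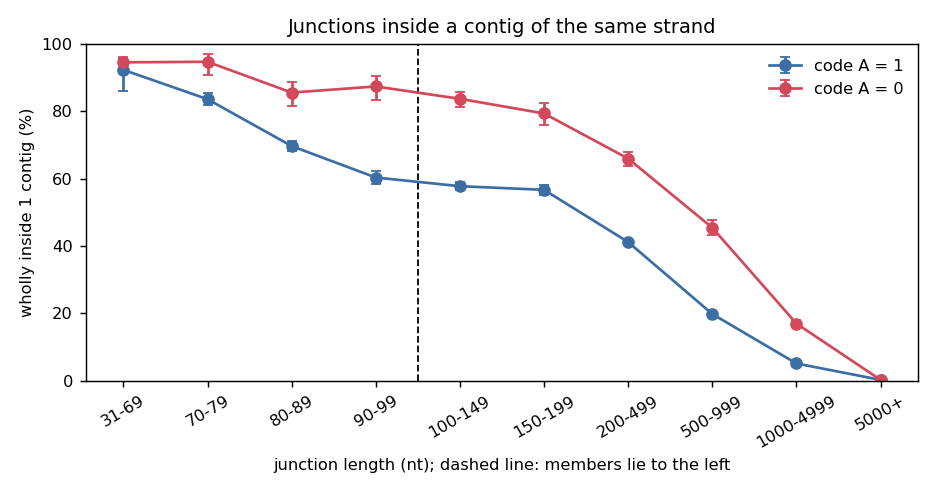
Percent of junctions lying wholly inside 1 contig of the same strand, by length class, for code A=1 (blue) and A=0 (red), with 95% Wilson intervals as error bars. The A=1 share falls from 92.3% in the shortest class to 60.3% at 90 to 99 nt, and the A=0 share is higher in every class from 70 to 4999 nt.

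The transcript tables give a separate estimate of how much of a gene's RNA keeps a short intron. In 1099 members the gene had at least 1 TPM in both replicates and a quantified transcript that keeps the intron in an exon. Such transcripts took a mean of 13.7% of the gene's level in replicate 1 and 13.3% in replicate 2 (13.5 ± 0.304, SD, n = 2), and a median of 6.77% and 6.10%. The share was under 10% in both replicates for 601 members and 50% or more in both for 44. Among members with at least 100 reads, the highest mean shares were chosen after their values were seen. Vim, the intermediate filament vimentin, headed them with 61.4% and 77.5% in transcripts that keep its 80-nt intron, which had 701 reads in R1 and 386 in R2. Slc1a5, a glutamine transporter, had 50.2% and 51.1%, with 1152 and 1268 reads across its 71-nt intron. Trim28, a transcriptional corepressor, had 61.3% and 52.6%, with 878 and 438 reads across 79 nt. These shares are model estimates over whole transcripts, which differ from the spliced forms in other ways too.

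Some members had alternative ends. Of the members 16.03% shared a start or an end with another junction (95% Wilson interval 15.3 to 16.8), against 21.6% of all junctions and 20.4% of those of 100 up to 200 nt. At a score under 0.01, which also leaves fewer partners, it was 3.82%. The share was 11.0% for members coded A=1, 72.5% for those coded A=0 and C=1, and 23.1% for those coded A=0 and C=0. Where a member and another junction, both coded C=1, shared the 5′ splice site and their 3′ splice sites lay within 30 nt, the commonest distance was 3 nt, in 66 of 287 pairs. This is the spacing of tandem acceptors, in which a further AG lies 1 codon's length away. Where they shared the 3′ splice site, the commonest distance between the 5′ splice sites was 4 nt, in 19 of 120 pairs, and 3 nt occurred in 2.

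The most nearly equal pairs among members with at least 100 reads had identical counts. The 75-nt introns of the complement genes C4a and C4b, which are near-identical neighbours, each had 634 reads, 341 in R1 and 293 in R2. A junction of 79635 nt that joins the start of one to the end of the other also had 634 reads. A 97-nt intron of C1rb, a complement protease gene with a close copy, had 1682 reads, as did a junction of 57642 nt that shares its 3′ splice site. Counts of near-identical copies are uncertain, because the sources do not state how reads that fit several places were counted. The other 2 pairs, an 82-nt member with 152 reads beside a junction of 240226 nt and a 52-nt member with 105 reads beside one of 234 nt, had no gene match.

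The meaning of code C can be set against the sequence where the bases could be read. Of matched introns whose bases lie in another transcript's exon, 1596 of 1596 members coded C=1 began with GT and ended with AG. Of the 3 such members coded C=0, 2 were GC-AG and 1 was neither. Unmatched members were placed by their distance from the end of an exon that borders a matched intron, which was possible for 547. Of those coded C=1 all 181 had GT and AG at their ends, and of those coded C=0 none of 366 did. The genome itself was not used here, and bases could be read for 20.2% of matched members.

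Some A=0, C=0 members could be placed with GC-AG ends, most of them a few bases away from the deposited position. When a junction's 2 ends carry the same bases, a read fits equally well at several positions, and the placement is a convention. Of 364 placed A=0, C=0 members 16 had GC-AG and 2 had AT-AC ends at some placement within such a repeat. Of these, 6 fell on an annotated intron once moved there, and whether the others are introns was not tested. The 4 annotated ones with the most reads are printed at the annotated position, with capitals for the first and last intron bases.
Man2c1 intron: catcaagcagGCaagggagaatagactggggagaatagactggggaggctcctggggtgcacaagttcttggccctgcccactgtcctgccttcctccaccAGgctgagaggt
Ipo5 intron: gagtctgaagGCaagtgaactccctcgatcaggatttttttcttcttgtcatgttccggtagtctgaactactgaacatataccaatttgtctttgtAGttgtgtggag
Ncaph2 intron: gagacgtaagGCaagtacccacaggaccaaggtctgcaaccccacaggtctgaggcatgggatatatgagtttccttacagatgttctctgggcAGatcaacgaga
Fbf1 intron: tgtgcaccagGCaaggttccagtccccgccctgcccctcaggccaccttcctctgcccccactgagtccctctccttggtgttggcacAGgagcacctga

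All 4 share GCAAG at the 5′ splice site after an exon that ends in AG. The intron of Man2c1, a cytosolic alpha-mannosidase (GRCm38 chr9:57141713-57141805, plus strand), is 93 nt long and had 716 reads in R1 and 540 in R2. It is the A=0, C=0 member with the most reads, and its deposited position lies 3 nt from the annotated one. The 89-nt intron of Ipo5, a nuclear import receptor (chr14:120926324-120926412, plus strand), had 164 and 38 reads. The 86-nt intron of Ncaph2, a condensin II subunit (chr15:89370309-89370394, plus strand), had 49 and 35 reads, and the 80-nt intron of Fbf1, a protein of the ciliary base (chr11:116145543-116145622, minus strand), had 20 and 58. Among the A=1, C=0 members the highest were a 93-nt intron with no single gene (1262 reads), one of Plekhn1 (89 nt, 733 reads) and one of Acadvl, a mitochondrial fatty acid oxidation enzyme (88 nt, 352 reads). Their bases could not be read.

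A second group coded A=0 had GT and AG ends inside what other transcripts use as exon. The 3 placed in coding exons with the most reads are printed with the same capitals.
Cd300lg junction: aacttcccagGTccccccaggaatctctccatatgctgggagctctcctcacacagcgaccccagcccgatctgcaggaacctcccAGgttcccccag
Fastk junction: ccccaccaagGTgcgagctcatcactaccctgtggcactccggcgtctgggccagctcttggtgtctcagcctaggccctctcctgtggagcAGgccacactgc
Chpt1 junction: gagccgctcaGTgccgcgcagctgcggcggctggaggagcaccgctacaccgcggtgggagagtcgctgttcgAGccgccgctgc

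The 78-nt junction of Cd300lg, an endothelial surface protein (GRCm38 chr11:102046964-102047041, plus strand), had 47 reads in R1 and 68 in R2. It carried a repeat of 8 bases at its ends, where placed members coded A=0 and C=1 had a median of 2. The junction of Fastk, a kinase-related mitochondrial RNA regulator (84 nt, chr5:24443992-24444075, minus strand), had 40 and 27. That of Chpt1, a choline phosphotransferase (65 nt, chr10:88503729-88503793, minus strand), had 28 and 32. Of the 33 such junctions wholly inside coding sequence 18 had a length divisible by 3 (54.5%, 95% Wilson interval 38.0 to 70.2). Of the 142 elsewhere 30.3% did (23.3 to 38.3). The intervals only just overlap, and the difference was not tested. Some of the 142 overlapped one another in 1 gene, such as those of 40 and 80 nt in Cxcl16. They are not independent, and the intervals do not allow for that. A further 112 members coded A=0 and C=1 matched an intron of GENCODE M21, led by a 99-nt intron of Nrbp2 with 440 and 361 reads. The release behind code A is not stated.

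The third group, A=0 and C=0 with neither GT-AG nor GC-AG ends, nor minor-class ends, nor GT-AG ends on the opposite strand, at any placement, held 346 of the 364 placed members, and 132 lay wholly inside coding sequence. Their 2 ends carried a direct repeat with a median of 5 bases, and 81.2% had a repeat of 3 or more. Placed members coded A=0 and C=1 had a median of 2 bases, and 42.9% had 3 or more. The 4 with the most reads in coding exons bordered by matched introns on both sides, with a repeat of 3 to 10 bases, are printed with both copies of the repeat in capitals.
Fasn junction: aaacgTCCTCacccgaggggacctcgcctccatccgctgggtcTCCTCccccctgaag
Sec31a junction: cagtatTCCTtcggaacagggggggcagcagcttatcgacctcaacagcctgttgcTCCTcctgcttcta
Scd1 junction: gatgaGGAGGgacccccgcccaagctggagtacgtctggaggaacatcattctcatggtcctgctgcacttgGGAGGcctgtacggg
Prrc2a junction: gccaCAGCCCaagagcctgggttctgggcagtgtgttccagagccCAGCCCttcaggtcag

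The first skips 38 nt of a Fasn coding exon (GRCm38 chr11:120812780-120812817, minus strand) and had 167 reads in R1 and 169 in R2, in a gene whose matched short introns had 6407 or more each. That of Sec31a, a COPII coat protein, skips 50 nt (chr5:100373639-100373688, minus strand) and had 49 and 45 reads. That of Scd1, the stearoyl-CoA desaturase, skips 67 nt (chr19:44406540-44406606, minus strand) and had 53 and 31, and that of Prrc2a skips 41 nt (chr17:35152679-35152719, minus strand) and had 29 and 34. These 4 had reads in both R1 and R2, but others of the group were uneven. A 70-nt junction of Snx20 had 17 and 145 reads, a 43-nt junction of Dut 27 and 120, and a 96-nt junction of Igfbp3 1 and 43. Of the 346, after scaling by the totals, 49 were higher in R2 beyond 2-fold (14.2%) and 3 higher in R1 (0.867%). Calls used the 95% Clopper-Pearson interval of the ratio, and the backgrounds were 4.85% and 6.9%. Among all members the shares were 7.05% and 5.44%. The background junctions had a median of 51 reads, against 15 for the 132 in coding sequence and 12 for the 214 elsewhere. Fewer reads make a call less likely, so these shares are not at equal depth. Longer repeats also occurred: 33 of the 364 had 15 bases or more (9.07%), against 25 of the 175 placed members coded A=0 and C=1 (14.3%). Among the 33 were junctions of 60 and 90 nt in Son, a splicing cofactor that contains tandem repeats. In coding sequence 60 of 132 lengths were divisible by 3 (45.5%, 95% Wilson interval 37.2 to 54.0), against 41.6% of the 214 elsewhere (35.2 to 48.3). The intervals overlap, and the difference was not tested. With repeats of 15 bases or more left out, the share in coding sequence was 40% (31.7 to 48.9). Whether such junctions arise in the cell or during library preparation and alignment was not tested.

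**Figure D4:**
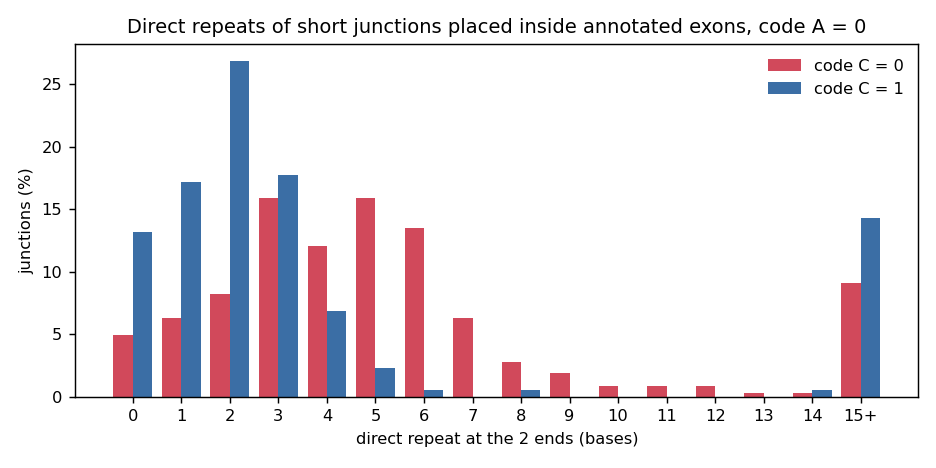
Percent of short junctions coded A=0 and placed inside annotated exons, by the number of bases repeated at their 2 ends, for 364 coded C=0 (red) and 175 coded C=1 (blue), with 15 or more pooled in the last bar. C=0 junctions are most frequent at 3 to 6 bases and C=1 junctions at 2.

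The shortest members with at least 20 reads, 5 of them in both R1 and R2, were 31 and 32 nt long. A 31-nt member on chromosome 4 (mm9 chr4:131912362-131912392) had 75 and 51 reads, and no gene could be named. A 31-nt junction in Jup, the desmosomal protein plakoglobin, had 16 and 6 reads and a 7-base repeat. A 32-nt junction in Alkbh5, an RNA demethylase, had 82 and 27 reads, and alone among these 5 it was coded C=1, with GT and AG ends. The other 2, of 31 and 32 nt, lay within 1 stretch of chromosome 2 and overlapped each other.

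Reads in R1 and R2 were compared after scaling by their totals. This is a description, because the score that chose the members may rest on both numbers. Higher in R1, with the 95% Clopper-Pearson interval of the ratio wholly beyond 2-fold, were 509 members (5.44%), where the background over all junctions was 6.9%. Higher in R2 were 660 members (7.05%), where the background was 4.85%. The median log2 ratio of R1 to R2 was -0.07 for members and 0.26 for all junctions. The exon GC content moved with this ratio. Among matched junctions with at least 20 reads, the median for members fell from 1.28 where flanking exons had at most 45% GC to -0.99 where they had over 60%, and for longer junctions from 1.22 to -0.97. Members and longer junctions differed by -0.36 over all, and by -0.11 to 0.06 within the 5 classes of GC content.

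The 5 largest ratios of R1 to R2 were 3 introns of Acta1 and 2 of Atp2a1, the calcium pump of fast muscle. The 85-nt intron of Atp2a1 had 26206 reads in R1 and 2 in R2. The 76-nt intron of Acta1 had 73301 and 23, its 97-nt intron 68740 and 25, and its 98-nt intron 64714 and 16. Over the 33 matched members in skeletal muscle genes R1 had 269999 reads and R2 had 154. Of these members 32 of 33 (97.0%) were higher in R1 beyond 2-fold, where the background over all junctions was 6.9%. The gene tables show a gap of the same kind: 6 skeletal muscle markers summed to 27098 TPM in replicate 1 and 12.2 TPM in replicate 2, with none at 0 and 4 of 6 at 1 TPM or more in both. In bulk tissue, fewer muscle cells and less RNA per cell cannot be told apart. With the junctions of these 12 genes left out, members held 11.2% of R1 reads and 12.9% of R2 reads.

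The largest ratios of R2 to R1 were smaller. Among the highest was an 83-nt member without a gene match of its own, with 6 reads in R1 and 103 in R2. It shared its 5′ splice site with a matched 80-nt intron of Hnrnpab, which had 595 and 4443 reads. A 91-nt intron of Hmgn1, a nucleosome-binding protein, had 33 and 435, a 78-nt intron of Prdm4 had 9 and 109, and a 77-nt intron of Dda1 had 40 and 420. In the lists, 0 of 43 matched adipocyte and lipid members were higher in R1 beyond 2-fold and 2 were higher in R2 (4.65%), near the background of 4.85%. Of 115 collagen members 0 were higher in R1, where the background was 6.9%, and 13 in R2 (11.3%, background 4.85%), with a median log2 ratio of -0.63. The lists' medians for adipocyte and lipid genes and for splice site genes were -0.03 and 0.77. Ribosomal protein members ranged from -2.24 in Rpl12 to 7.60 in Rpl3l, a form of striated muscle, which had 249 reads in R1 and 0 in R2.

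**Figure D5:**
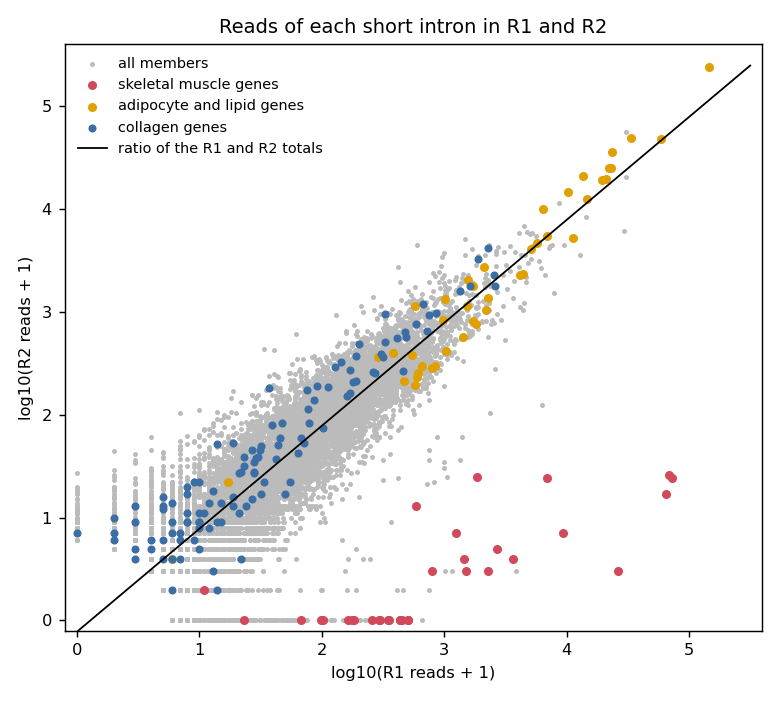
Reads of each of the 9357 members in R1 and R2, as log10 of reads plus 1, with members in skeletal muscle (red), adipocyte and lipid (orange) and collagen (blue) genes marked and a line at the ratio of the totals. Most members lie along the line, and the muscle members lie far below it, down to 0 reads in R2.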

How the data were processed

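The authors deposited 1 junction table and 1 contig table for the series, on mm9 per the text notes beside them and without headers. The junction count is the authors' read count and equals R1 plus R2. The deposited score and the deposited contig signal have no stated meaning or unit. Per the file headers, the gene and transcript tables of each replicate hold expected counts, TPM, FPKM and, for transcripts, isoform percent, made with GENCODE M4 on mm10 per the text notes. No source used here names the aligner or the quantifier.

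Junctions were read with Python 3.11.15, pandas 2.3.3, numpy 2.4.6 and scipy 1.17.1. Junction starts are printed 1-based. Structure matching against GENCODE M21 on GRCm38 allowed exons up to 6000 nt between introns and was tested on simulated junctions and decoys. Gene names came from introns of 1 gene. Bases came from M21 transcripts, and 10 exon bases were needed on each side. R1 and R2 were scaled by their totals over junctions with a score under 0.1, with 1 read added for log2 ratios. Intervals are 95% and cover counting error only. Figures were drawn with matplotlib 3.10.9.

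The members and gene lists were chosen with earlier results of these data known. Named members were the 15 with the most reads, the 5 shortest, the highest of each code, those beside the thresholds, the 5 largest R1 to R2 ratios each way among members with at least 50 reads, the 5 most nearly equal pairs, the 5 genes with the most members, and up to 4 members of each list. Of these, 1 member chosen by this rule is not reported here. Placed junctions, repeats and the GC classes were chosen after values were seen, as were the members named from them. Alternatives were other scores, lengths, read minimums, contig rules, matching rules and units, and each replicate left out. Junctions are not replicates, and no p-value is given.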

Additional observations from a re-analysis of the deposited data

How the results depend on the processing

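Of 54 alternatives 24 stayed within 1.5 times the count, the 95% interval or 1 SD, and 30 moved further. The 9357 members became 4036 at a score under 0.01, 37932 with no score threshold and 2448 under 80 nt. Their percent of junctions became 8.18, 8.17 with no threshold and 7.16 with 5 reads in both R1 and R2. Their percent of reads became 13.4 at the stricter score, 12.3 with none, 11.98 in R1 alone and 12.9 in R2 alone. The median length became 86 at the stricter score and weighted by reads, and 76 with no threshold. Code A=1 took 96.8% at the stricter score, 24.6% with none and 89.3% with at least 10 reads, and C=1 took 98.1%, 37.2% and 94.0%. Multiples of 3 rose to 37.5% with no threshold. The percent inside a contig became 80.2 at the stricter score and 73.9 on either strand. Shared ends fell to 3.82% at the stricter score, 12.6% with 10 reads and 11.4% for partners with 10% of the reads. Matches to 1 gene became 65.9% by both sides, 76.04% at the stricter score and 85.7% with 10 reads. Without replicate 1 or 2, host gene medians were 27.2 and 22.4 TPM and kept-intron shares 13.3% and 13.7%. These values count as having stayed but could not do otherwise, because each of 2 values always lies within 1 SD of their mean. In FPKM the host median was 18.2. The stricter score leaves fewer neighbours to match or share ends with. The R1 share of 11.98% became 11.2% without muscle genes. GC content of the introns themselves was not run: bases could be read for 20.2% of matched members, so that check is void. No paired analysis was possible because there is 1 group.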

Other observations

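Code C went with how a junction was placed. Of 346 placed A=0, C=0 members whose ends carry a repeat, 346 stood at the leftmost genome position the repeat allows. Of 152 such members coded C=1, 38 stood leftmost and 37 rightmost. A leftmost position moves a junction towards the 5′ side of plus-strand genes and towards the 3′ side of minus-strand genes. Of the 22 members coded A=1 and C=0, 19 lay on the minus strand, whereas 47.8% of members coded A=1 and C=1 lay on the plus strand.

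Members were unevenly spread over chromosomes. They made up 9.95% of junctions on chromosome 17, 9.37% on chromosome 7 and 9.09% on chromosome 8, against 3.22% on chromosome 1 and 3.59% on chromosome 13. Ttn, with the most matched members of any gene, had 1298 of its 1299 member reads in R1, and its level was 25.7 TPM in replicate 1 and 0.04 TPM in replicate 2. Close copies gave near-equal counts: a 90-nt junction had 74 and 107 reads in Csf2rb2 and 68 and 111 in Csf2rb, and a 66-nt junction had 24 and 28 reads in Trbc1 and 23 and 28 in Trbc2.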
